A study of Drosophila melanogaster with 6 samples.

Results

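The count tables of single cells from fly brains list 5416 transposable element insertions by their own identifiers (FBti), beside the genes. Of these, 1273 held at least 50 unique molecular identifiers (UMIs, tags that each mark 1 captured RNA molecule), summed over all barcodes with at least 1000 UMIs in 6 libraries, and these 1273 insertions are described here. A further 10 insertions past the limit were set aside by the same rule. At least 1 UMI was seen for 3195 insertions and none for 2221. The summed count chose the members, so their having counts is no finding. Just outside the limit, at 49 UMIs, were invader4{}2888, Stalker4{}2443 and roo{}995, and just inside it, at 50 UMIs, were 1360{}2401, roo{}992 and invader1{}1540.

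The libraries came from 3 pools of control brains and 3 pools of knock-in brains of Drosophila melanogaster, each of 20 male and 20 female brains dissociated with trypsin. The controls are labelled as wild type with the genotype elav-GAL4(x)/+, a transgene on the X chromosome that makes the GAL4 activator in neurons. The other flies are labelled as Tau P251L mutants with the genotype elav-tau P251L KI, a knock-in that changes an amino acid of the microtubule-associated protein Tau. Fly age and how the knock-in was made are not given in the sources used here. Nothing in the labels ties 1 control pool to 1 knock-in pool.

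Transposable elements are stretches of DNA that can move or copy themselves. LTR elements (roo, copia, blood, mdg1, opus) and LINE-like elements (jockey, Doc, F, I) copy through RNA, DNA transposons (1360, HB, pogo) move as DNA, and the INE-1 Helitron remnants are short, old and the most numerous in the fly genome. HeT-A and the TART elements are LINE-like elements that make up fly telomeres. In the germline small RNAs bound by Piwi proteins hold transposons silent, and in somatic tissue small interfering RNAs made by Dcr-2 and loaded into AGO2, together with heterochromatin, are known to do so. An insertion that lies within a gene on the same strand is also part of that gene's unspliced RNA, so its reads cannot be told apart from those of the gene. Copies of a family can be nearly identical, and how the authors assigned reads that match several copies is not given in the sources used here, so the value of 1 copy is uncertain.

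Each library held 22026339 to 114599045 UMIs, of which barcodes with at least 1000 UMIs carried 11495072 to 89321910, in 5467 to 30602 barcodes. No library pair shared over 1.02% of the barcodes of the smaller library. Neurons were taken as barcodes with a UMI of nSyb (neuronal synaptobrevin, a vesicle fusion protein) and none of repo (a glial transcription factor), and glia as the reverse. The glial sums were small, with 27 to 121 barcodes and 71858 to 381236 UMIs per library. The 8 neuronal markers summed to 12651 to 14498 CPM (counts scaled to a library total of 1000000) in nSyb barcodes and 341 to 3144 CPM in repo barcodes, so that neuronal RNA was present in the repo barcodes as well. All 8 were lower and all 9 glial markers higher in repo barcodes (edgeR quasi-likelihood test, adjusted p under the threshold of 0.05). Both lists hold the gene that defines the class. Markers of other cells moved between the libraries: the 6 fat body markers summed to 7521, 3300 and 731 CPM in controls 1 to 3 and to 532, 660 and 27.1 CPM in knock-in libraries 1 to 3. Photoreceptor markers ran from 9.31 to 177 CPM over the libraries. The 5 hemocyte markers summed to 114, 92.6 and 84.2 CPM in controls and 68.9, 66.6 and 70.3 CPM in the knock-in libraries, with no overlap. The germline and muscle markers summed to at most 1.23 and 1.60 CPM. None of the marker genes passed the test between genotypes. The transcript of tau itself was at 269, 273 and 280.2 CPM in controls and at 307, 311 and 68.7 CPM in the knock-in libraries; counts do not show which allele made it. Knock-in 3 was below every other library, and whether its label is right was not tested; the counts of calls between genotypes are given below without it as well. Control 1 and knock-in 3 stood apart from their groups for many insertions, as given below.

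The 1273 insertions belonged to 113 families. LTR elements gave 447 members of 1312 annotated insertions (34.1%), DNA transposons 239 of 810 (29.5%) and LINE-like elements 305 of 1049 (29.1%), while the INE-1 Helitrons gave 280 of 2234 (12.5%). Among the well represented families, roo had 108 of its 136 copies above the limit, copia 27 of 35, Doc 51 of 68 and opus 22 of 31. Members were long, with a median of 1496 bases against 328 bases for all annotated insertions. Placed by identifier on the Ensembl annotation of the BDGP6.54 assembly, 476 members lay inside a gene on the gene's strand, which was 34.5% of all insertions so placed. Inside a gene on the opposite strand were 293 (23.6%), and outside genes 475 (17.5%). The small chromosome 4, rich in heterochromatin, had 198 of its 565 insertions above the limit (35.04%), against 19.5% to 24.4% on the other arms.

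Together the members held 1316783 UMIs, 0.451% of all UMIs in these barcodes. The share was 0.359%, 0.348% and 0.454% in controls 1 to 3 and 0.342%, 0.712% and 0.485% in knock-in libraries 1 to 3. The groups overlapped, and knock-in 2 was highest. Counts were concentrated in few members: the 10 highest by UMIs held 32.7% of all member UMIs, and jockey{}1009 alone held 12.7%. The median member held 248 UMIs (quartiles 101 and 569), 201 members held at least 1000, and 1155 were seen in all 6 libraries. All 1273 had a UMI in nSyb barcodes and 716 had one in repo barcodes.

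The highest member was jockey{}1009 (FBti0020120), a fragment of 500 bases of the LINE-like element jockey outside genes on chromosome arm 3L (15899285 to 15899784, plus strand). It was at 2.26, 160 and 301 CPM in controls 1 to 3 and at 120, 1935 and 117 CPM in knock-in libraries 1 to 3. Knock-in 2 was highest and control 1 was far below every other library. Knock-in 2 was also highest and control 1 lowest in opus{}4946 (2R, 11415571 to 11418664), an LTR element in an intron of the aquaporin gene Drip on the opposite strand, at 7.31, 57.3 and 180 CPM in controls and 57.7, 541 and 143 CPM in the knock-in libraries. The same held for mdg1{}831 (2R, 15015512 to 15022878), in an intron of hbs on the opposite strand, at 2.26, 45.1 and 202 CPM against 45.6, 395 and 129 CPM. The last of this kind among the 10 highest was Tabor{}341 (2L, 11540638 to 11547982), outside genes, at 3.22, 36.1 and 139 CPM against 34.5, 358 and 92.0 CPM.

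A second kind was nearly level. The LTR element invader2{}1169 (FBti0020280; 3L, 23271761 to 23276816), in an intron of the acetylcholine receptor gene nAChRalpha4 on the same strand, was at 115, 131 and 112 CPM in controls and 116, 102 and 128 CPM in the knock-in libraries. The rooA copies rooA{}4276 (2R, outside genes) and rooA{}1496 (chromosome 4, in an intron of the synaptotagmin gene Syt7 on the same strand) ran from 64.9 to 82.6 CPM and from 63.5 to 81.5 CPM over all libraries. Xanthias{}6297, outside genes on 2R, ran from 59.8 to 104 CPM. The DNA transposon H{}84, opposite to the acetylcholine receptor gene nAChRalpha3, was at 57.3, 48.6 and 49.6 CPM in controls and 81.6, 81.0 and 66.1 CPM in the knock-in libraries, groups that did not overlap but did not pass the test (log2 fold change 0.66, SE 0.13, edgeR, adjusted p = 0.147). The tenth, roo{}339, ran from 22.7 to 106 CPM with both groups overlapping.

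**Figure D1:**
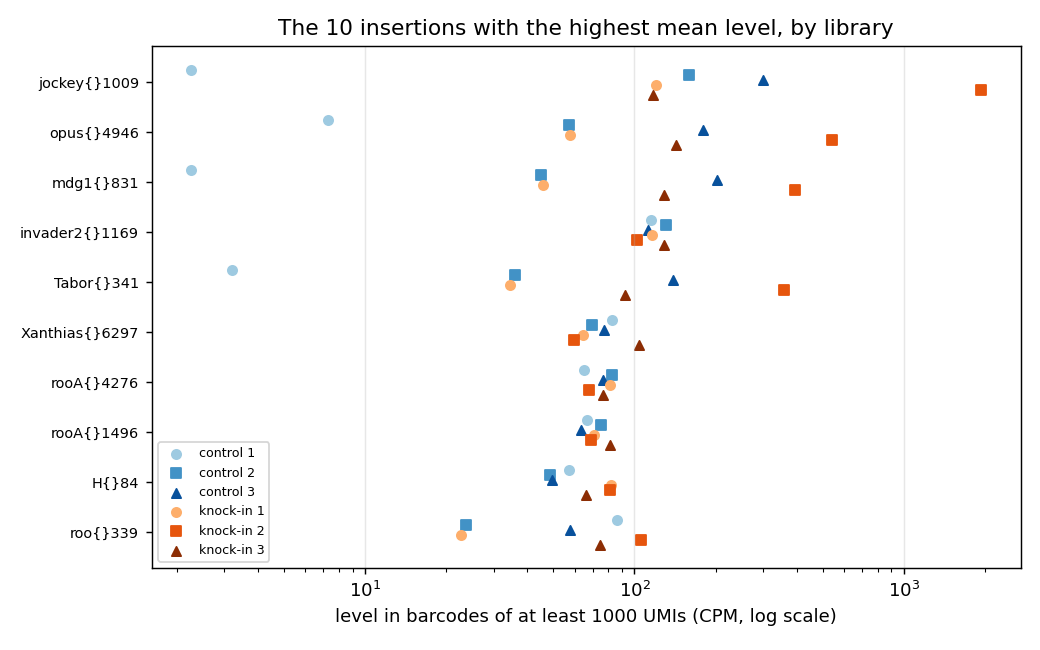
Level of the 10 insertions with the highest mean, in CPM (log axis) over barcodes of at least 1000 UMIs; each point is 1 of 6 libraries. 4 insertions spread over orders of magnitude with knock-in 2 highest and control 1 lowest (jockey{}1009 from 2.26 to 1935 CPM), while invader2{}1169 stayed between 102 and 131 CPM.

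The level of insertions moved in different ways with the depth of the barcode. In knock-in 2, jockey{}1009 gave 3.54 UMIs per barcode among barcodes of 101 to 499 UMIs, 3.90 among those of 500 to 999, 4.06 among those of 1000 to 1999 and 4.92 among those of 2000 or more. Its level in CPM fell from 11657 CPM in the shallow barcodes to 1433 CPM in the deepest. The UMIs per barcode thus rose little from the shallowest of these classes to the deepest. In control 2 the same 4 values were 0.452, 0.528, 0.499 and 0.566 UMIs per barcode. For invader2{}1169 in knock-in 2 they were 0.00915, 0.0586, 0.137 and 0.360 UMIs per barcode, and its level rose from 30.1 to 104.9 CPM. Over the members with at least 1000 UMIs, 28 of 201 (13.9%) were over 4-fold higher, in the median over libraries, in barcodes of 101 to 499 UMIs than in those of 2000 or more, against 310 of 7374 features of any kind with that depth (4.20%). Most members went the other way: 163 of the 201 (81.1%, against 88.8% of features) were lower in the shallow barcodes, and the median of shallow over deep was 0.361 over members and 0.503 over features. Among these 28 were mdg1{}831, mdg1{}1678 and Tabor{}341, many copies of opus and roo, and the short LINE-like copies jockey{}964 and BS{}933. The coefficient of variation within groups of 1 of the 28, an LTR copy on 3R, was 18.6%, so they were not all uneven between libraries. RNA outside cells gives UMIs to barcodes of every depth; its part in these levels was not tested.

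**Figure D2:**
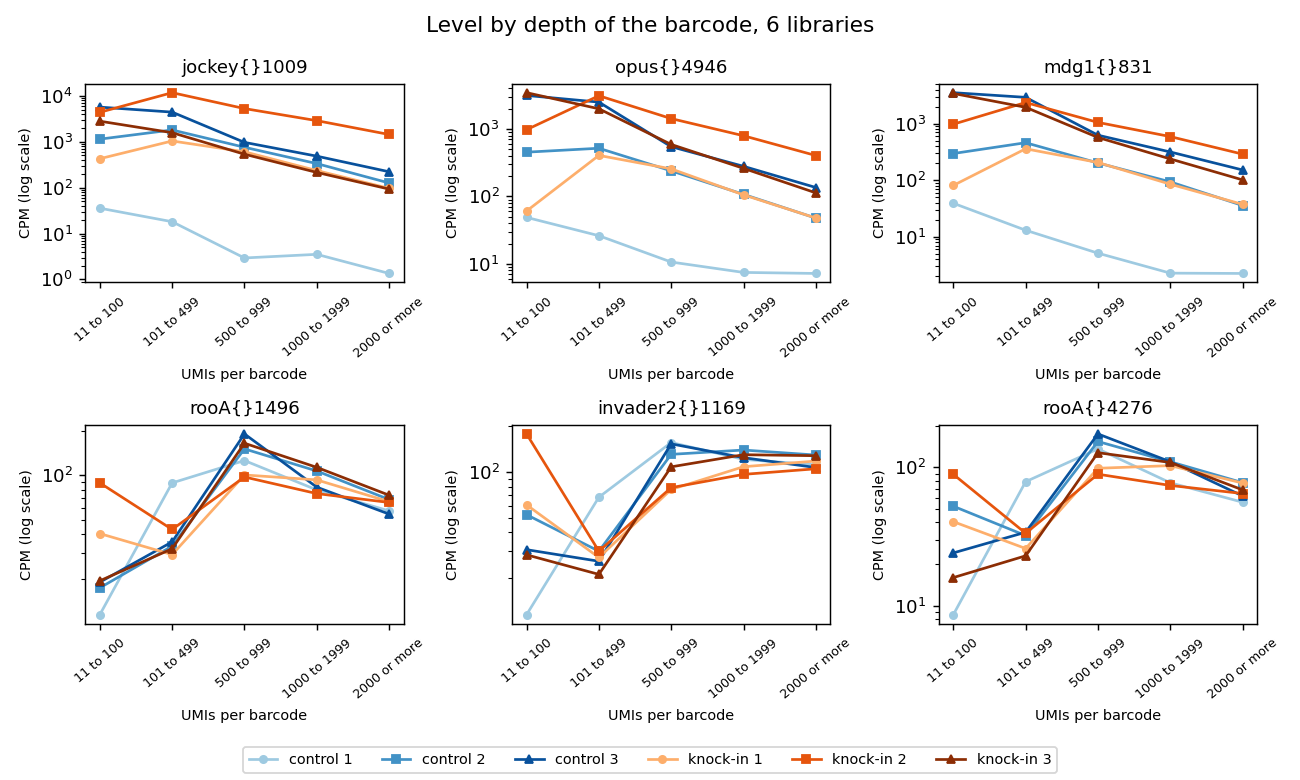
Level in CPM (log axis) against the number of UMIs of the barcode, in 5 classes, for 6 insertions; each line is 1 library. jockey{}1009, opus{}4946 and mdg1{}831 are higher in barcodes of 101 to 499 UMIs than in those of 2000 or more in every library, and invader2{}1169 and both rooA copies are lower in barcodes of 101 to 499 UMIs than in those of 500 to 999 in every library.

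Insertions varied more between libraries of 1 group than all features with at least 50 UMIs did, without matching for depth. Counting error adds to the coefficient of variation where UMIs are few, and its part was not tested. At least 1000 UMIs were held by 201 of the 1273 members and by 7374 of the 11630 features. The coefficient of variation within groups had a median of 42.2% over the 1273 members and 20.1% over all 11630 features with at least 50 UMIs. At 1000 UMIs or more the medians were 25.8% (201 members) and 14.5% (7374 features). It was over 50% in 46 of the 201 members (22.9%) and in 4.10% of the 7374 features. Without control 1 and knock-in 3, which leaves 2 libraries a group, the medians were 23.9% over the 1273 members and 15.4% over features, and 29 of the 201 (14.4%) were over 50%, against 2.54% of features. The steadiest members were Fw2{}4362 in CG34357 (7.68 to 9.43 CPM over all libraries, coefficient 6.39%), Cr1a{}1170 in nAChRalpha4 (3.72 to 4.52 CPM), Tc1{}1500 in Syt7 (11.3 to 14.5 CPM), gypsy6{}4000 outside genes (8.64 to 13.4 CPM) and HB{}2269 in CG2225 (18.2 to 25.1 CPM). All but gypsy6{}4000 lie inside a gene on its strand. The most uneven were pogo{}916, jockey{}1009, jockey{}964, Tabor{}341 and mdg1{}831, with coefficients from 111% to 139%. Without control 1 and knock-in 3 they were opus{}1099, mdg1{}831, roo{}944, Tabor{}341 and HMS-Beagle{}347, with coefficients from 98.9% to 103%.

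Some insertions set 1 library apart from the other libraries of its group. Among the 962 members with at least 100 UMIs, knock-in 3 was over 8-fold above both other knock-in libraries for 10 and over 8-fold below both for 9 (0.1 CPM added). The share was 1.98% of members against 0.952% of 10502 features with that depth. Over 8-fold above all 5 other libraries it was for 4 members, and below all 5 for 1 (0.520% of members, against 0.505% of features). The LTR element Stalker{}1427, in the polarity gene scrib on its strand, was at 26.9 CPM in knock-in 3 and between 0.279 and 0.609 CPM in the other 5 libraries. Stalker{}1795 (19.9 CPM, elsewhere 0.271 to 0.624 CPM) and 297{}6 (12.3 CPM, elsewhere 0.114 to 0.783 CPM) had the same pattern. Other members of the 10 were at a level like that of the controls in knock-in 3 and low in knock-in 1 and 2. copia{}1467 was at 9.83, 4.23 and 5.06 CPM in controls and 0.459, 0.613 and 7.42 CPM in the knock-in libraries, and jockey{}5489 at 2.26, 2.16 and 1.94 CPM against 0.0336, 0.0570 and 1.80 CPM. Conversely, several of the 9 were high in knock-in 1 and 2 only. The DNA transposon fragment pogo{}916 on 3L was at 21.0, 9.31 and 0.0410 CPM in knock-in libraries 1 to 3 and at 0, 0.0364 and 0 CPM in the controls. In the same way 412{}5, in an intron of Appl (the fly amyloid precursor protein-like gene), was at 9.70, 7.37 and 0.123 CPM, against 0.174 to 0.425 CPM in the controls. The LTR copy 297{}1282, within the synapsin gene Syn, was at 10.6, 9.66 and 0.205 CPM, against 0.277 to 1.39 CPM in the controls. Knock-in 3 lay below each control for 412{}5 and 297{}1282, and just above the highest control for pogo{}916.

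Control 1 was over 8-fold above both other controls for 2 members and below both for 16, which is 1.87% of members against 0.524% of features. Knock-in 2 was above both other knock-in libraries for 3 (0.312%, against 0.0952% of features). Control 2, control 3 and knock-in 1 had none, against 0.0286%, 0.733% and 0.0952% of features. Against all 5 other libraries, control 1 was above for 1 and below for 10 (1.14%, against 0.343% of features), and knock-in 2 above for 1. The 2 high in control 1 were the LINE-like copies Doc{}64 (9.74 CPM) and Doc{}966 (7.13 CPM), with 0.228 to 1.19 CPM in all other libraries. Besides jockey{}1009 and its like, control 1 was low for short copies such as BS{}933 (0 CPM, elsewhere 3.05 to 7.84 CPM) and hopper{}4525 (0 CPM, elsewhere 2.11 to 4.02 CPM). In knock-in 2, rover{}243 (X, 22430064 to 22435354) was at 133 CPM and elsewhere at 1.13 to 4.34 CPM. These members were picked by their values, so the differences are given as a description.

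Glia and neurons differed in many insertions, but in a smaller share of them than of all features tested, without matching for depth. With the 12 sums of both classes and the library as a block, 296 members passed the filter on low counts, and 78 of these (26.4%) passed the test, against 47% of the 7981 features tested. In repo barcodes 29 were higher (9.80%, against 17.9% of features) and 49 lower (16.6%, against 29.2%). The median log2 fold change was -0.26 over the 296 members tested and -0.38 over features. Members and features differed in depth, and its part in these shares was not tested. At least 1000 UMIs were held by 201 of the 1273 members, and by 7374 of the 11630 features with at least 50 UMIs. The filter asked for 1.86 CPM in at least 6 of the 12 sums. Of the 296, 20 reached that level in no repo sum and 1 in no nSyb sum, so that their direction was tied to the filter. Among the other 275, 28 were higher and 36 lower. These were not free of the filter either, since 1 UMI in a repo sum was past the limit (2.62 CPM in knock-in 1, the largest repo sum). Most of the 36 reached it in all 6 nSyb sums, which alone met the filter. Some of the 28 reached it in few nSyb sums, such as Stalker4{}2894 and Dm88{}2197 (1 nSyb and 5 repo sums each). Of the 49 lower members, 13 had no UMI in any repo sum and 11 had 1. In repo barcodes the summed fat body markers ran from 996 to 6370 CPM, with Fbp1 and Lsp2 at 0, and the muscle markers were all at 0; the part of other cells in these results was not tested.

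The higher members were long and mostly LTR elements. The median length was 7062 bases, 23 of the 29 were at least 4000 bases long and 21 were LTR elements, against 2698 bases, 126 and 136 of the 296 tested. The largest rise was in springer{}1464 (FBti0019466; 3R, 31074284 to 31081826), an LTR element in an intron of the SoxE gene Sox100B on the opposite strand. In repo barcodes it was at 1155, 148 and 208 CPM in controls 1 to 3 and at 231, 24.1 and 227 CPM in the knock-in libraries, and in nSyb barcodes it was at 2.57 to 4.24 CPM. Every library had more in repo barcodes (log2 fold change 5.90, SE 0.41, edgeR, adjusted p = 4.6e-10). The other springer copy that rose, springer{}1067 at the end of isoQC, was at 12.1 to 83.5 CPM in repo and at 2.45 to 4.24 CPM in nSyb barcodes (3.20, SE 0.41).

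The telomeric element HeT-A rose in both tested copies. HeT-A{}6268 (FBti0102111; chromosome 4, 1301834 to 1307750) was at 153, 110 and 58.1 CPM in repo barcodes of the controls and at 391, 960 and 646 CPM in those of the knock-in. In nSyb barcodes it was at 5.10, 6.93 and 5.24 CPM and at 20.9, 29.2 and 10.4 CPM. Its log2 fold change of repo over nSyb was 4.59 (SE 0.31, edgeR, adjusted p = 3.7e-10), with every library in this direction. HeT-A{}1685, also on chromosome 4, averaged 121 ± 113 CPM in repo and 15.9 ± 10.5 CPM in nSyb barcodes (SD, n = 6 libraries; log2 fold change 2.75, SE 0.30). It had no UMI in repo barcodes of control 1, where its nSyb level was higher. The tested copies of TART-A and TART-C, which share the telomeres with HeT-A, were lower in repo barcodes. TART-C{}6275 averaged 28.4 ± 34.2 CPM in nSyb and 1.44 ± 2.48 CPM in repo barcodes and TART-A{}4601 6.25 ± 2.89 and 0.437 ± 1.07 CPM (SD, n = 6 libraries). With 2 and 1 repo UMIs, the ratios of nSyb over repo were 12.3 (exact 95% counting interval 3.39 to 101) and 8.10 (1.45 to 320), and both passed the test. TART-C{}6275 was at 97.9 CPM in nSyb barcodes of knock-in 3. The TART-B family, whose copies are not members, was higher in repo barcodes (family sum, log2 fold change 3.03, SE 0.52), where it had no UMI in any control. HeT-A{}1685 and both TART copies were named after their values were seen.

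Of the 17 blood members, 5 passed the filter, and these 5 rose. blood{}1094, in CG14459 on its strand, averaged 29.2 ± 20.0 CPM in repo and 4.28 ± 1.32 CPM in nSyb barcodes, and blood{}1092, outside genes on the same arm, 10.1 ± 8.27 and 0.740 ± 0.717 CPM (SD, n = 6 libraries). blood{}1092 reached the level of the filter in 1 nSyb and 5 repo sums, so it was tested through the class where it was high. The third, blood{}2438 (X, 21716913 to 21731788), lies opposite to lncRNA:flam, the flamenco locus whose transcripts are cut into Piwi-bound small RNAs in the ovary. In repo barcodes blood{}2438 was at 83.5, 33.5 and 33.2 CPM in controls and 26.2, 24.1 and 8.74 CPM in the knock-in libraries, and in nSyb barcodes at 0.299 to 5.16 CPM (log2 fold change 3.14, SE 0.42). The lncRNA:flam gene was itself higher in repo barcodes (2.21, adjusted p = 0.00064), and without knowledge of strand use the reads of both cannot be told apart. blood{}2438 was also 8.38-fold higher in barcodes of 101 to 499 UMIs than in those of 2000 or more. Further rises were found in mdg1{}CG42335[iso-1] (69.4 ± 30.6 against 2.56 ± 0.981 CPM), the LINE-like G4{}2264 (11.01 ± 5.53 against 0.233 ± 0.167 CPM, from 10 repo UMIs and tested through the repo sums alone) and Quasimodo{}3987 (19.4 ± 11.8 against 1.99 ± 0.843 CPM; SD, n = 6 libraries each). Quasimodo{}3987 reached the level of the filter in 3 nSyb and 5 repo sums. Doc{}CHKov1[Doc1420], which sits in an exon of CHKov1, averaged 56.5 ± 45.2 CPM in repo and 2.79 ± 0.587 CPM in nSyb barcodes (3.95, SE 0.40), and CHKov1 itself rose by 4.60 on the log2 scale.

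Of the 49 lower members, 28 were inside a gene on its strand, in 15 genes, against 123 of the 296 tested, which was not tested as a difference. Of the 49, 19 were on chromosome 4, several of them in the same gene, against 65 of the 296 tested. The median length of the 49 was 1166 bases, against 2698 bases for the 296. Neither was tested as a difference. The best covered was invader2{}1169 in nAChRalpha4, at 102 to 132 CPM in nSyb and 0 to 48.3 CPM in repo barcodes, lower in 6 of 6 libraries (log2 fold change -2.44, SE 0.37, edgeR, adjusted p = 1.8e-05). rooA{}1496 in Syt7 (71.4 ± 5.20 against 15.4 ± 12.9 CPM), H{}84 opposite to nAChRalpha3 (65.2 ± 14.4 against 16.7 ± 11.5 CPM) and FB{}1604 at the end of CG7369 (59.0 ± 13.8 against 6.22 ± 6.17 CPM) were lower as well. Outside genes, Xanthias{}6297 fell from 77.1 ± 16.3 to 21.9 ± 6.98 CPM (SD, n = 6 libraries). These 5 were chosen for their counts after the values were seen.

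The largest fitted falls belonged to members without a repo UMI, for which a floor of 3 UMIs over all repo sums gives a bound in place of the fold. Each of those named here reached the level of the filter in every nSyb sum and in no repo sum. They were tested through the class where they were high, so their direction was tied to the filter. The INE-1 copies INE-1{}3345 and INE-1{}3324 in toy, a Pax6 transcription factor gene, were at least 5.06-fold and 3.94-fold lower in repo barcodes, from 10.6 to 17.1 CPM and 4.93 to 23.2 CPM in nSyb barcodes. The bounds were 4.02-fold for Bari2{}4359 in CG34357, 3.45-fold for INE-1{}3980 in Cadps (a factor of dense-core vesicle release), 2.97-fold for opus{}821 in tei, 2.83-fold for INE-1{}3385 in the protein kinase gene CaMKII and 2.46-fold for HB{}134 in the ubiquitin ligase gene hiw. G3{}1, INE-1{}5317 and 1360{}1498 had bounds of 1.94-fold or less. These 3 calls were lost when single libraries were left out, with adjusted p up to 0.0895 for INE-1{}5317 without control 2. INE-1{}5317 and 1360{}1498 were each lost in 9 alternatives (of 16 and 17), among them DESeq2, the deepest barcodes left out and at least 2 UMIs of the marker.

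**Figure D3:**
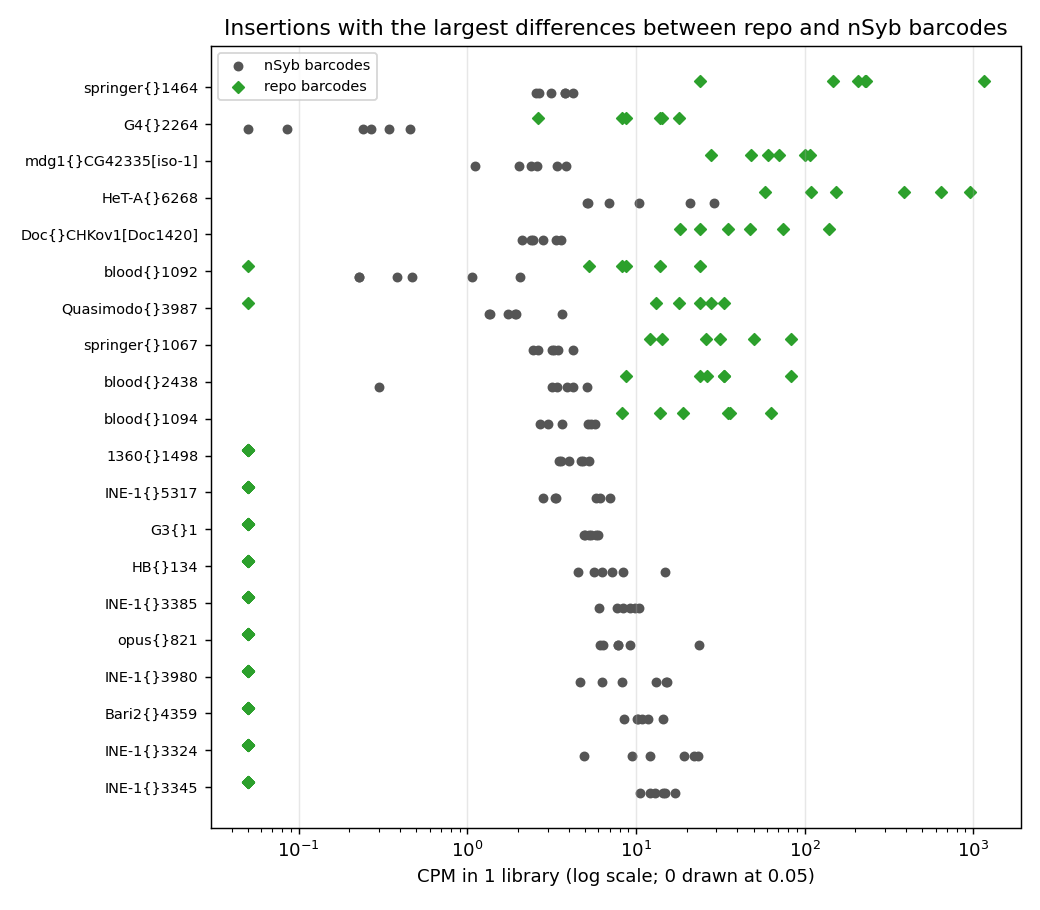
Level in CPM (log axis, 0 drawn at 0.05) of the 10 insertions with the largest rises and the 10 with the largest falls in repo barcodes; each point is 1 library, in nSyb barcodes (circles) or repo barcodes (diamonds). The 10 lower insertions are at 0 in all 6 repo sums and passed the filter through the nSyb sums alone, so their direction was tied to it. Repo values of springer{}1464 run from 24.1 to 1155 CPM against 2.57 to 4.24 CPM in nSyb barcodes.

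Lower insertions inside a gene on its strand lay in genes that were lower too. All 27 lower members with a tested gene around them on the same strand had a gene that was itself lower in repo barcodes by the test. Several of the 27, such as INE-1{}3345 and Bari2{}4359, had no repo UMI and reached the level of the filter in no repo sum. Their own direction was tied to the filter. Of all features tested, 29.2% were lower, and the share among the genes around the other tested members is not given here. The 28 lower members on the strand of their gene lay in 15 genes, so the 27 are not separate cases. Of the 5 higher members so placed, the gene was higher for 1, Doc{}CHKov1[Doc1420]. blood{}1094 (2.76) and mdg1{}1442 (2.54) rose although CG14459 (-3.42) and CG34354 (-3.17) around them fell. This pair was named after its values were seen, and mdg1{}1442 reached the level of the filter in 3 nSyb and 5 repo sums. Over 112 such insertions in 72 genes the log2 fold changes of insertion and gene had a Pearson correlation of 0.49 (Spearman 0.53), and over 37 insertions on the opposite strand 0.27 (Spearman 0.21). These are correlations across insertions that share libraries and partly share genes, and are given as a description. Among the 112 are members without a repo UMI, such as INE-1{}3345 with a fitted value of -11.4. Such fitted values are no measured folds, and no correlation was computed without them.

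**Figure D4:**
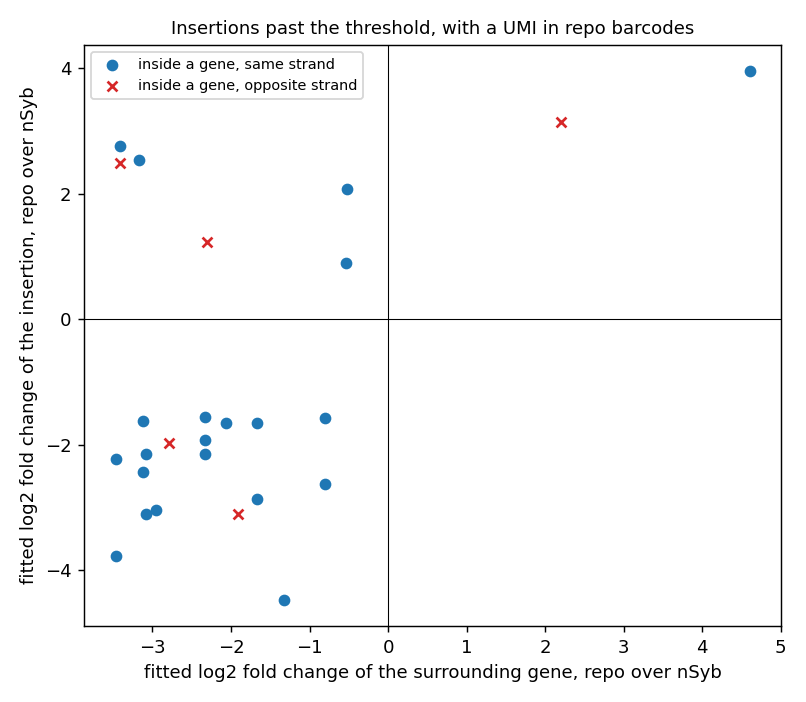
Fitted log2 fold change (repo over nSyb) of each insertion past the threshold against that of the gene around it, for insertions with at least 1 repo UMI and a tested gene; circles lie on the gene's strand and crosses on the opposite strand. The lower left part holds most of the circles, and Doc{}CHKov1[Doc1420] (3.95 against 4.60) is the only circle in the upper right part.

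Summed per family, where the split of reads among copies does not matter, 92 families with a member were tested and 28 passed, 14 higher and 14 lower in repo barcodes. Reads left out for matching several copies, if any, are missing from these sums too. Counting every family, with TART-B, which was higher and whose copies are not members, it was 29 of 93 (31.2%), against 47.2% of features (18.2% higher and 29% lower). LTR families were 10 of the 14 higher ones and 3 of the 14 lower ones, and LINE-like families 3 and 7. How many of the 92 tested families were of each class was not counted, so these numbers give no comparison between classes. The rises were largest in springer (374 ± 439 against 9.64 ± 1.22 CPM, log2 fold change 4.61), HeT-A (4.27) and blood (152 ± 52.1 against 21.1 ± 6.13 CPM, 2.76), each in 6 of 6 libraries. The family sum of HeT-A includes copies set aside by the rule, since its 5 members hold 14539 of the 74914 UMIs of the family. Falls included H (127 ± 12.02 against 33.8 ± 19.1 CPM, -1.85), invader2 (-1.31) and the INE-1 Helitrons, whose 2234 copies summed to 521 ± 69.1 CPM in nSyb and 290 ± 62.1 CPM in repo barcodes (-0.93; SD, n = 6 libraries).

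Between the genotypes, few insertions passed the test, and most of those were lower in the knock-in. Over all barcodes 1174 of the 1273 members passed the filter on low counts. Of these, 9 passed the test (0.767%), against 0.223% of the 11200 features tested. Higher were 2 (0.0804% of features) and lower 7 (0.143% of features). In nSyb barcodes it was 13 of 1167 (1.11%), against 0.326% of 11045 features, with 3 higher (0.127% of features) and 10 lower (0.199% of features). At an unadjusted p under 0.05 were 140 of the 1174 members (11.9%) and 11.99% of features. The groups did not overlap for 192 members (16.4%, against 18.7% of features). Of these, 116 were higher in the knock-in (9.88%, against 5.38% of features) and 76 lower (6.47%, against 13.3%). The median log2 fold change was 0.18 over members and 0.00198 over features. The fat body and the hemocyte markers each summed to less in each knock-in library than in each control, as given above; their part in these results was not tested. In bulk sums of this kind fewer cells of a type and less RNA per cell cannot be told apart. Whether a copy is present in the genome of both groups of flies was not tested, and counts do not show it. The counts of calls rested on single libraries: over all barcodes 2, 0 and 3 members passed without control 1, 2 or 3, and 0, 0 and 22 without knock-in 1, 2 or 3. In nSyb barcodes these counts were 2, 1 and 3, and 0, 1 and 37.

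A pair of insertions had no UMI in any knock-in library. The LTR element flea{}1281 (FBti0019348; 3R, 9845570 to 9850598), in an intron of the sodium channel subunit gene Teh1 on its strand, was at 1.48, 0.995 and 1.80 CPM in the controls, and was at least 70.7-fold lower in the knock-in by a floor of 3 UMIs over that group (edgeR, adjusted p = 0.0395). INE-1{}3487 (FBti0061548; 3L, 21412 to 21838), near the start of the arm, was at 1.30, 1.13 and 1.32 CPM in controls and at least 71.8-fold lower in the knock-in (adjusted p = 0.0308). Teh1 itself did not pass the test (log2 fold change 0.26, SE 0.17). The gene nearest to INE-1{}3487, mthl8, a receptor gene 590 bases away on the other strand, was at 31.0, 26.9 and 24.7 CPM in controls and at 0 in all 3 knock-in libraries.

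Further insertions kept a low level in the knock-in. Transpac{}32 (FBti0019551; X, 3075689 to 3080937), in an intron of the cell adhesion gene kirre, fell from 2.00, 1.55 and 1.94 CPM to 0.0560, 0.0570 and 0.0410 CPM (log2 fold change -4.92, SE 0.40, adjusted p = 0.00828). BS{}707 (2R, 6096784 to 6101911), opposite to the ecdysone receptor gene EcR, fell from 1.22, 0.534 and 0.762 CPM to 0.0112, 0.0143 and 0.0410 CPM, which is 3 UMIs in the knock-in, and the controls were 39.0-fold higher (exact 95% counting interval 12.8 to 194). I{}1078 (3L, 21365893 to 21371264), a LINE-like I element outside genes, fell from 8.09, 4.34 and 3.60 CPM to 0.179, 0.242 and 0.369 CPM (-4.27, SE 0.46). In each of them the groups did not overlap, but they were picked by the test on the same values. Over all barcodes 13.3% of features were lower in the knock-in without overlap. The LTR copies Stalker2{}106, outside genes on X, and Stalker2{}1001, in CG17839 on its strand, fell from 5.68 to 19.0 CPM and 9.002 to 22.9 CPM in the controls to 0.615 to 0.898 CPM and 1.88 to 2.25 CPM in the knock-in (-3.88, SE 0.48, and -2.68, SE 0.35). None of kirre, EcR and CG17839 passed the test. The calls between genotypes over all barcodes were lost in 4 of 17 alternatives (Transpac{}32 and flea{}810) to 12 of 17 (Stalker2{}1001). That of flea{}1281 was lost in 10 of 17, that of INE-1{}3487 in 9 of 17 and that of BS{}707 in 9 of 16.

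The rises were in flea{}810 (FBti0018961; 2R, 11297673 to 11301936), which overlaps the end of CG7741, from 0, 0.0243 and 0.0693 CPM to 2.97, 2.42 and 3.57 CPM (edgeR, adjusted p = 0.0106), and in HeT-A{}4617 (FBti0062678; chromosome 4, 1277577 to 1278360), from 0.348, 0.534 and 0.416 CPM to 12.6, 9.38 and 3.93 CPM (4.33, SE 0.51, adjusted p = 0.0339). The control values of flea{}810 rest on 3 UMIs in all, a ratio of 103 with an exact 95% counting interval of 34.9 to 499. In nSyb barcodes the same 9 passed, and 4 more did so there alone: Quasimodo{}360 in CG42784 (log2 fold change -4.72), F{}763 in the polarity gene pk (-2.33) and Doc{}365 in TM9SF4 (-2.10) were lower, and the DNA transposon S{}8 in CG43867 was higher, each opposite to its gene. With 1 UMI in the controls, the ratio for S{}8 over all barcodes was 142 (exact 95% counting interval 25.3 to 5633). Over all barcodes their adjusted p were 0.0501, 0.0541, 0.0541 and 0.0541. The pattern of jockey{}1009 did not pass between genotypes (log2 fold change 2.32, SE 1.61, adjusted p = 0.586).

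**Figure D5:**
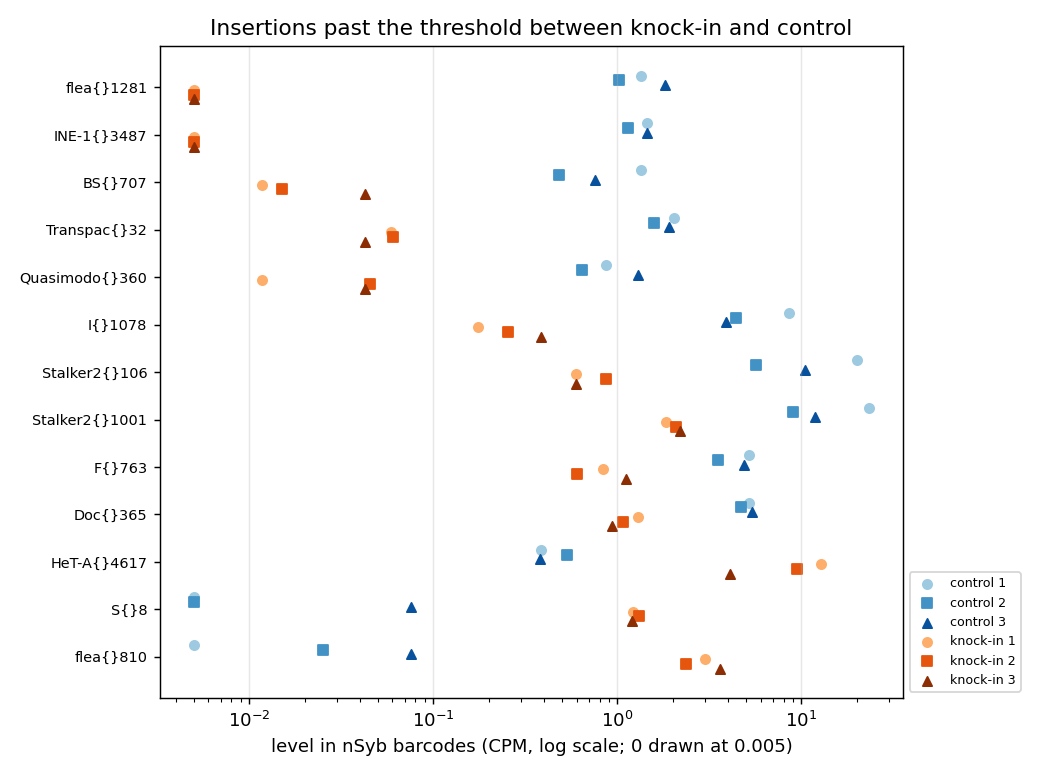
Level in nSyb barcodes in CPM (log axis, 0 drawn at 0.005) of the 13 insertions past the threshold between knock-in and control; each point is 1 library. Control and knock-in libraries do not overlap for any of the 13, which were picked by the test on these same values. In nSyb barcodes the groups did not overlap for 15.3% of members and 16.3% of the 11045 features tested. flea{}1281 and INE-1{}3487 are at 0 in all 3 knock-in libraries.

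Between genotypes, insertions and the genes around them showed little correlation. Over 420 insertions on the strand of their gene the Pearson correlation of the log2 fold changes was -0.00516 (Spearman 0.00307), and over 234 on the opposite strand 0.10 (Spearman 0.05). In repo barcodes only 8 members passed the filter on low counts and 0 passed the test (2 at an unadjusted p under 0.05, 1 with DESeq2), against 0.099% of 2020 features. HeT-A{}6268 came closest there, with repo values that did not overlap between genotypes, as in 4.01% of features higher in the knock-in (log2 fold change 2.76, SE 0.45, edgeR, adjusted p = 0.103). The difference of the genotype effect between the classes passed for 0 of 483 members in edgeR and in DESeq2 (15 at an unadjusted p under 0.05), against 0.0795% of 8802 features. Of families with a member, 0 of 112 passed between genotypes, against 0.129% of 10113 features; TART-B, the 1 family that passed, has no member. HeT-A, at 79.1, 117 and 136 CPM in controls and 294, 395 and 345 CPM in the knock-in libraries, had groups that did not overlap (1.75, SE 0.25, adjusted p = 0.10). Among features over all barcodes, 5.38% were higher in the knock-in without overlap. This family sum rests mostly on copies that are not members, among them copies set aside by the rule, so it is no result about the members.

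Genes that silence transposons were read from a list of 32, of which 31 were in the files. Over all barcodes the RNA interference genes AGO2, r2d2 and Dcr-2 averaged 95.3, 24.6 and 16.4 CPM over the 6 libraries, and the heterochromatin genes wde and the gene of HP1a 146 and 114 CPM. Of the 31, 13 averaged under 1 CPM, among them piwi (0.541 CPM), aub, rhi, zuc and moon. Other genes of the Piwi pathway were higher, with Gasz at 48.2, del at 7.34, Panx at 7.09, arx at 3.47, mael at 1.80, vret at 1.52 and AGO3 at 1.34 CPM. Between genotypes 24 were tested and 0 passed (edgeR; smallest adjusted p 0.432, for piwi), with a median log2 fold change of 0.07 against 0.00198 over all features. Between the classes 15 were tested and 6 passed (40%, against 47% of features), 5 of them lower (33.3%, against 29.2%), which is near the share over all features. The gene arx was higher in repo barcodes (1.45) while loqs (-1.88), Gasz (-2.39), wde (-1.28), the lamin gene Lam and the gene of HP1a (-0.79) were lower.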

How the data were processed

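UMI counts per feature and barcode were deposited by the authors for 6 libraries (3 control, 3 knock-in), made with the Chromium 3' kit v3.1 per the labels' protocols. Cell Ranger is named as version 6.0 in the submitters' processing notes and as version 4 per the file headers. The build, the annotation, strand use and the treatment of reads that match several copies are not given in the sources used here. Insertions were placed by identifier on the Ensembl annotation (BDGP6.54); element classes are textbook knowledge. Sequences are not shown.

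Raw counts were summed per library over barcodes with at least 1000 UMIs, and over nSyb and repo barcodes among them. CPM are counts scaled to a total of 1000000 per sum. The members and lists were chosen with earlier results of these data known. Tests used edgeR 4.0.16 in R 4.3.3 (quasi-likelihood, TMM, filterByExpr, two-sided), adjusted by Benjamini-Hochberg over all features tested, threshold 0.05; DESeq2 1.42.0 was an alternative. The SE is the size of the log2 fold change divided by the square root of F. Log2 fold changes are knock-in over control or repo over nSyb; the latter used 12 sums with library as a block. No doublet caller and no mitochondrial filter were used in the reported values; barcodes with both markers were left out of the classes. Fits were tested on simulated data. P-values between genotypes measure the spread between pools of brains. Those between classes measure how the difference of repo and nSyb sums varies over the pools. Counting intervals cover counting error only. Insertions were named by rule: the 10 highest mean CPM, the 10 largest rises and falls per test, the 5 largest and 5 smallest coefficients of variation among those with at least 1000 UMIs, the 3 on either side of the limit, and the surrounding genes; others are said to be chosen by their values.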

Additional observations from a re-analysis of the deposited data

How the results depend on the processing

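Over all barcodes the 9 insertions called between genotypes became 17 with only all-zero features left out, 53 with DESeq2, 4 with a block for depth, 4 with barcodes thinned and 0 to 22 with a library left out. In nSyb barcodes the 13 became 24, 47 and 8 with the low-count filter off, DESeq2 and thinning, and 0 to 37 with a library left out. In repo barcodes the 0 became 8 with the filter off and 1 each with DESeq2, the depth block and barcodes of at least 2000 UMIs. The 78 called between classes were 52 to 73 with a library left out and 0 after thinning, where 2 members were tested. The 1 family called between genotypes was 2, 9 and 0 to 3 with the filter off, DESeq2 and a library left out, and 0 with the set-aside insertions kept out, an alternative chosen after seeing the data. No label ties libraries of the same number, so the numbers were not taken as pairs. Same-numbered libraries 1, 2 and 3 correlated at 0.119, 0.0484 and 0.257 in their deviations from the group means. Controls 1, 2 and 3 with knock-in libraries of other numbers gave -0.170 to 0.119, -0.145 to 0.165 and -0.218 to -0.149. Number 3 thus stood above the others, and pairing is not excluded. The replicate block gave 0 calls over all barcodes, 10 in nSyb barcodes, 1 in repo barcodes and 1 family. The class tests without the library block gave 84 insertions and 28 families. No named insertion reversed: of the alternatives for single results 560 kept the call and 164 lost it. The causes were not tested. The median coefficient of variation was 31.8% to 42.1% with a library left out, an alternative chosen after seeing the data. In repo barcodes depth left 8 members to test between genotypes.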
